A study of Danio rerio with 2 samples.

Results

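The genes rhbg, rhcga and ca15a, which encode ammonia channels of the Rh glycoprotein family and a carbonic anhydrase, were examined in single cells of the zebrafish larval caudal fin fold. They are 3 of 15411 genes listed in the count matrix. They were selected on their levels in these same cells, where they lead subgroups of the epidermis. Their enrichment in the epidermis and their order among its subgroups therefore describe that choice and carry no test. The study compared cells of regenerating fin folds (cut), amputated under tricaine anaesthesia and collected 24 hours post amputation (hpA), with cells of intact fin folds (uncut), collected at the same hour. The authors' methods place amputation at 3 days post fertilization. Each condition was a single 10X Genomics 3' library from about 150 pooled larval fin folds, so larvae cannot be compared with one another. The line of the larvae used for these libraries is not given in the sources used here. The conditions could not be tested against each other, since neither was replicated, and every interval below is a 95% interval that covers counting error only.

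Rh glycoproteins are membrane channels that let ammonia cross the cell membrane, and fish use them to excrete nitrogenous waste through the gill and skin. Carbonic anhydrases convert carbon dioxide and water into bicarbonate and a proton, and a proton outside the membrane traps ammonia as ammonium. In zebrafish larvae, Rh glycoproteins are known from the skin, ionocytes among its cells, and ca15a, a membrane-bound carbonic anhydrase, is known from the ionocytes rich in the proton pump. The superficial epidermis is the outermost sheet of the fin fold and lies over the basal epidermis.

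The matrix held 1640 cells, 762 from the cut and 878 from the uncut library, with no cell barcode in common. Cells held a median of 7212 unique molecular identifiers (UMIs) in the cut library and 10476.5 UMIs in the uncut library. Clustering that left out all Rh glycoprotein and carbonic anhydrase genes gave 22 clusters. Of these, 5 clusters were superficial epidermis-like, each with 6 to 10 of 12 listed markers raised. They held 657 cells (40.1%), or 394 cells (51.7%) of the cut library and 263 cells (29.95%) of the uncut library. In these cells the median depth was 10370.5 UMIs in the cut library and 14555 UMIs in the uncut library. Levels are given as UMIs per 1000000 UMIs of the same cells (UPM).

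Cluster 1 (169 cells) was led by cyt1l and aep1, and cluster 2 (163 cells) by krt99 and slc6a19b. Cluster 3 (146 cells) was led by cyp1a and gfpt2, cluster 5 (118 cells) by ponzr4, ponzr3 and fut9d, and cluster 12 (61 cells) by the replication genes mcm2, mcm4 and mcm5. Cluster 12 came almost wholly from the cut library, with 58 cut and 3 uncut cells. Clusters 8 and 18 also raised superficial markers but stayed unnamed, and their 113 cells count here among the other cells. krt99 was not particular to cluster 2, as it stood at 428 UPM there and at 766 UPM in cluster 8.

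rhbg, which encodes the Rh glycoprotein B channel, was the most abundant of the 3 genes. It reached 483 UPM (469–498) in superficial epidermis-like cells and 50.7 UPM (46.1–55.7) in all other cells, a log2 ratio of 3.25 (3.11–3.40). Superficial epidermis-like cells held 4316 of its 4750 UMIs (90.9%). At least 1 UMI was found in 401 of 657 superficial epidermis-like cells (61.0%, 57.2–64.8) and in 54 of 983 other cells (5.49%, 4.15–7.11). In mesenchyme-like cells, which are not epidermal, it was found in 13 of 433 cells (3.002%) at a median depth of 5747 UMIs, against 12186 UMIs in superficial epidermis-like cells. Thinned to 2000 UMIs per cell, the shares were 42.0% of superficial epidermis-like cells and 1.48% of mesenchyme-like cells.

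Within the superficial epidermis the rhbg level followed the subgroup. It was highest in cluster 5, at 871 UPM (832–912) with a UMI in 116 of 118 cells (98.3%), and 659 UPM (610–710) in cluster 12. Clusters 1 and 3 followed with 468 UPM (440–496) and 356 UPM (329–385). In cluster 2, led by krt99, the rhbg level was 47.7 UPM (37.8–59.3) with a UMI in 15.3% of cells. The members were chosen as leaders of epidermal subgroups, so this order is a description. Over both libraries the counting intervals of neighbours in it did not overlap, but they treat the UMIs of 1 cell as independent. In the cut library alone the order was the same, but in the uncut library cluster 3, at 442 UPM (395–493), overlapped cluster 1, at 423 UPM (389–459), and the 3 uncut cells of cluster 12 gave 889 UPM. Cluster 2 was lowest in both.

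rhcga, an Rh glycoprotein C-type channel, had the highest ratio of the 3, although its interval overlapped that of ca15a. It reached 330 UPM in superficial epidermis-like cells and 9.11 UPM in all other cells, a log2 ratio of 5.18 (4.85–5.52), with 2948 of 3026 UMIs (97.4%) in the superficial epidermis. A UMI was found in 294 of 657 superficial epidermis-like cells (44.7%, 40.9–48.6), in 21 of 983 other cells (2.14%, 1.33–3.25) and in 1 of 433 mesenchyme-like cells (0.231%). Thinned to 2000 UMIs, it was found in 28.8% of superficial epidermis-like cells and 0 of 405 mesenchyme-like cells, for which 3 counts, the floor used for a count of 0, allow a share of cells with a UMI of up to 0.741%. Cluster 5 again stood highest at 616 UPM (583–650), with a UMI in 80.5% of cells. Clusters 3, 1 and 12 held 270 UPM (247–295), 260 UPM (239–281) and 258 UPM (228–291) over both libraries. These like values pooled unlike libraries: cluster 1 stood above cluster 3 in cut cells, at 331 UPM (296–369) and 167 UPM (143–193), but below it in uncut cells, at 207 UPM (184–233) and 422 UPM (376–472). Cluster 2 held 180 UPM (160–201) in 22.7% of its cells, and 152 of its 302 UMIs came from 3 cells, one of which had 94. The rhcga level of cluster 2 therefore rested on few cells.

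ca15a was much scarcer, with 260 UMIs in 149 cells. It reached 27.8 UPM in superficial epidermis-like cells and 1.40 UPM in all other cells, a log2 ratio of 4.31 (3.48–5.28), and 248 UMIs (95.4%) lay in the superficial epidermis. A UMI was found in 140 of 657 superficial epidermis-like cells (21.3%, 18.2–24.6), in 9 of 983 other cells (0.916%, 0.419–1.73) and in 2 of 433 mesenchyme-like cells (0.462%). Over both libraries, ca15a showed no order among the subgroups that its counts could resolve. It was 35.4 UPM (27.2–45.3) in cluster 3, 29.0 UPM (19.6–41.4) in cluster 12 and 28.9 UPM (22.5–36.7) in cluster 1. Clusters 5 and 2 held 23.4 UPM (17.3–31.0) and 22.6 UPM (16.0–31.1), so all 5 intervals overlapped. In the uncut library, however, cluster 5 held 6.86 UPM (2.52–14.9), below the intervals of clusters 1, 2 and 3. That value came from 6 UMIs, 3 of them in 1 cell.

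**Figure D1:**
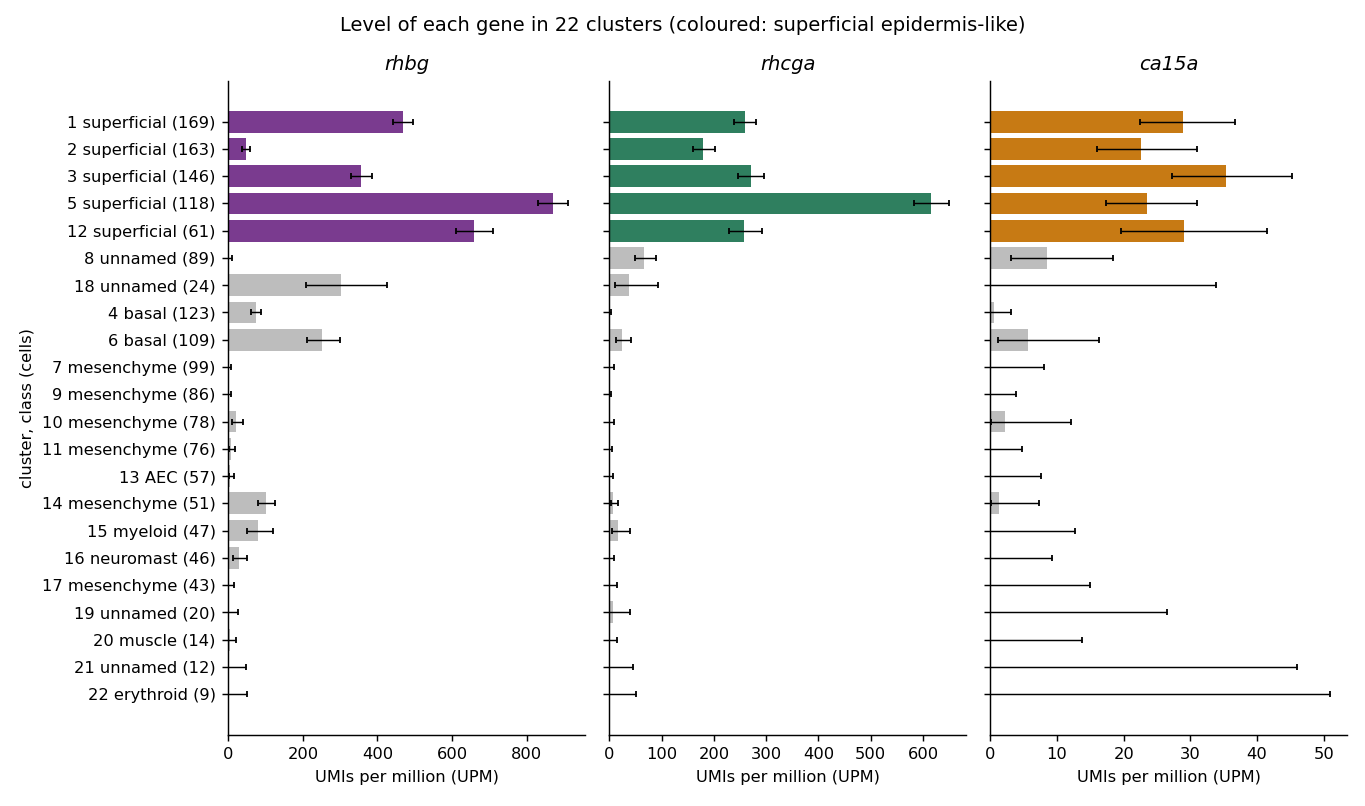
Level (UPM, linear axis from 0) of rhbg, rhcga and ca15a as bars, 1 row per cluster with its class and number of cells, with exact 95% Poisson intervals as whiskers; coloured bars are superficial epidermis-like clusters and AEC is the apical epithelial cap. rhbg ranges over the superficial clusters between 47.7 UPM in cluster 2 and 871 UPM in cluster 5, while the ca15a intervals of these clusters overlap.

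All 3 members were at least 2-fold higher in superficial epidermis-like cells than in the rest, as were 10.3% of the 8401 genes counted, but this contrast chose them and nothing is read from the count. By that ratio rhcga ranked 3, ca15a 12 and rhbg 30 of the 8401 genes. The ratio depended on where the clusters were drawn. At a Leiden resolution of 2, 35 cells of cluster 5 lost the superficial name, and with them 712 rhbg and 587 rhcga UMIs moved to the other side, which left log2 ratios of 1.80 for rhbg, 1.97 for rhcga and 2.56 for ca15a.

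The genes differed in how their UMIs were spread over cells. Among superficial epidermis-like cells with a UMI, the median was 8 UMIs for rhbg, 5 for rhcga and 1 for ca15a, and the highest cell held 71 UMIs of rhbg, 94 of rhcga or 8 of ca15a. At least 10 UMIs of rhbg were found in 104 of 394 cut cells (26.4%) and 65 of 263 uncut cells (24.7%). No UMI of rhbg was found in 33.0% of cut and 47.9% of uncut superficial epidermis-like cells. These are counts as deposited, and the uncut cells were deeper. Thinned to 2000 UMIs, 52.6% of cut and 65.8% of uncut cells held no rhbg UMI. After thinning, 2.89% of cut and 0.760% of uncut cells held 5 to 9 rhbg UMIs. For rhcga, 14.7% of cut and 16.7% of uncut cells held at least 10 UMIs, and 55.8% of cut and 54.4% of uncut cells held none. For ca15a, 79.4% of cut and 77.6% of uncut cells held none, and no cell reached 10 UMIs.

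**Figure D2:**
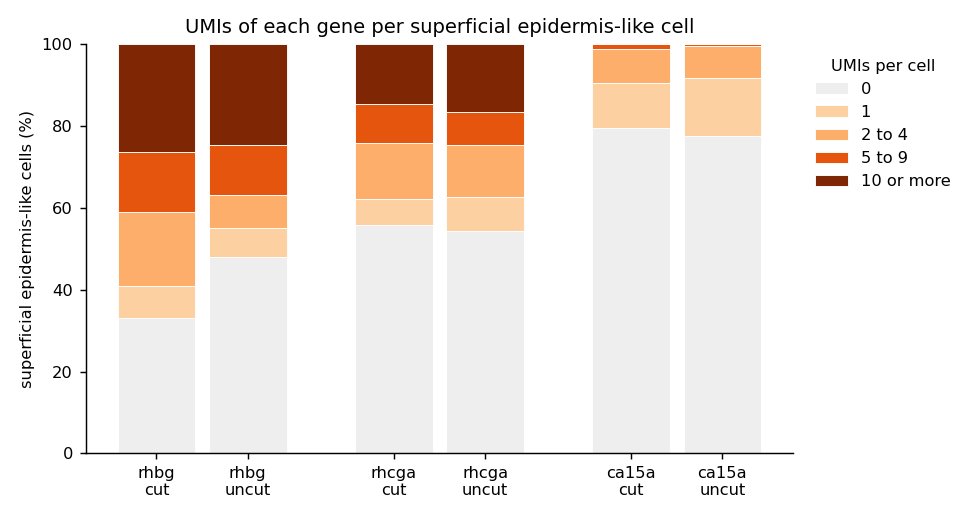
Percent of superficial epidermis-like cells (394 cut, 263 uncut) in classes of UMIs per cell, for each gene. Cells without rhbg make up 33.0% in the cut and 47.9% in the uncut library.

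Outside the superficial epidermis, rhbg was carried by a few cells. Of its 434 UMIs there, 125 lay in 3 cells and 333 in the 16 cells with at least 10 UMIs. Basal epidermis-like cells held 268 of these UMIs, with a UMI in 20 of 232 cells (8.62%). In basal cluster 6, which was shallow, the level was 252 UPM (211–298) but came from 9 of 109 cells. Unnamed cluster 18 held 302 UPM (208–425), in 11 of 24 cells. Cluster 8, the other unnamed cluster with superficial markers, held 2.83 UPM of rhbg, 66.4 UPM of rhcga and 8.48 UPM of ca15a.

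Cells outside the superficial clusters that held a member also held more superficial marker RNA. The summed level of the 12 superficial markers had a median of 48424 UPM in the 54 rhbg-positive other cells and 1588 UPM in the 929 rhbg-negative ones. It was 125049 UPM in the 21 rhcga-positive and 1828 UPM in the 962 rhcga-negative other cells. For ca15a it was 100628 UPM in the 9 positive and 1867 UPM in the 974 negative other cells. What part superficial RNA or misplaced cells have in these detections was not tested.

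Ionocytes, the skin cells for which ca15a is best known, were close to absent. No cluster could be named for them. The ionocyte regulators foxi3a and gcm2 had 63 UMIs in 9 cells and 14 UMIs in 5 cells, and the channel gene trpv6 and the exchanger gene slc9a3.2 had none in 1640 cells. The anion exchanger gene slc4a1b had 1 UMI in each of 20 cells, 19 of them superficial epidermis-like, and the regulator foxi1 was found in 6 cells, 5 of them superficial epidermis-like. The proton pump gene atp6v1aa, on the same ionocyte list, was found in 36.2% of superficial epidermis-like and 15.8% of other cells. It was left out of the 9 narrow ionocyte markers. At least 2 of these 9 markers were found in 3 cells, of which 0 were superficial epidermis-like. Among these 3 cells, 1 held rhbg, 0 held rhcga and 0 held ca15a. Of the 35 cells with 1 marker, 29 were superficial epidermis-like. ca15a was found in 9 of these 35 cells (25.7%) and in 140 of the 1602 cells with no marker (8.74%). The shares for rhbg were 54.3% of cells with 1 marker and 27.2% of cells with none, and for rhcga 48.6% and 18.6%. Only 628 of the 1602 cells with no marker were superficial epidermis-like, so the groups differed in cell class. Over all superficial epidermis-like cells the shares were 21.3% for ca15a, 61.0% for rhbg and 44.7% for rhcga.

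rhbg and rhcga were often found in the same cells, which may in part follow from their choice as leaders of epidermal subgroups. Of 657 superficial epidermis-like cells, 248 held both, 153 rhbg alone, 46 rhcga alone and 210 neither. rhcga was found in 61.8% (56.9–66.6) of rhbg-positive and 17.97% (13.5–23.2) of rhbg-negative cells, a difference of 43.9 percentage points (36.7–50.4). Positive cells were deeper, with a median of 14034 UMIs in rhbg-positive and 10028.5 UMIs in rhbg-negative cells. Thinned to 2000 UMIs per cell, the shares were 43.7% of rhbg-positive and 17.96% of rhbg-negative cells, a difference of 25.7 points (18.4–32.9).

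As deposited, the pairing was seen in each library and inside subgroups. The shares in this paragraph are not thinned, so cell depth enters them. In the cut library rhcga was found in 58.0% of rhbg-positive and 16.2% of rhbg-negative cells, and in the uncut library in 69.3% of rhbg-positive and 19.8% of rhbg-negative cells. In cluster 1, 75 of 124 rhbg-positive and 9 of 45 rhbg-negative cells held rhcga, and in cluster 3 it was found in 47.6% of rhbg-positive and 17.2% of rhbg-negative cells. Even in cluster 2, where rhbg was rare, 13 of 25 rhbg-positive cells (52.0%) and 24 of 138 rhbg-negative cells (17.4%) held rhcga. In cluster 5, 94 of 116 rhbg-positive cells (81.03%) held rhcga and only 2 cells lacked rhbg. Outside the superficial epidermis 8 of 54 rhbg-positive (14.8%) and 13 of 929 rhbg-negative cells (1.40%) held it.

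The pairing of ca15a with the Rh genes could not be separated from cell depth. As deposited, it was found in 25.7% of rhbg-positive and 14.5% of rhbg-negative superficial epidermis-like cells, a difference of 11.2 points (4.76–17.4). For rhcga the shares were 24.5% of positive and 18.7% of negative cells, a difference of 5.76 points (−0.76–12.3). Thinned to 2000 UMIs, ca15a was found in 4.98% of cells, close to a level of single UMIs, and its difference was −2.19 points (−5.67–1.51) by rhbg and −0.92 points (−4.38–3.51) by rhcga, which cannot be read at that level. All 3 genes were found together in 62 of 657 cells (9.44%, 7.31–11.9), which were the deepest, with a median of 17864.5 UMIs against 9337 UMIs in the 183 cells with none. Of these, 32 were cut (8.12% of cut cells) and 30 uncut (11.4% of uncut cells), and 1 of 983 other cells held all 3.

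**Figure D3:**
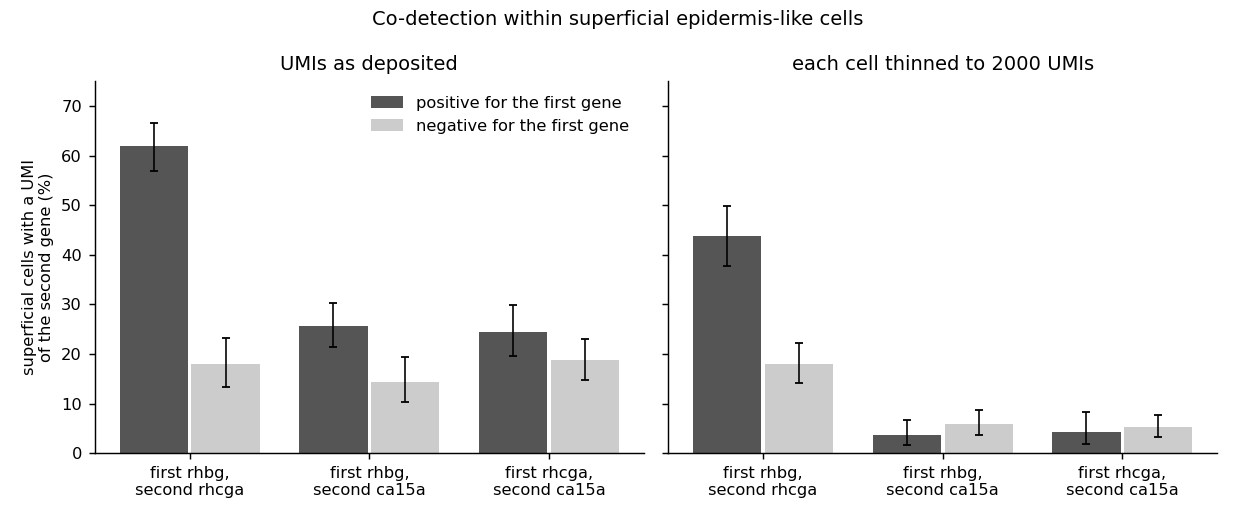
Percent of superficial epidermis-like cells with the second gene of each pair, in cells positive and negative for the first, as deposited and thinned to 2000 UMIs, with exact 95% binomial intervals. The rhbg and rhcga pair keeps a gap after thinning (43.7% and 17.96%), while the thinned ca15a shares lie close to a level of single UMIs.

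The genes most like rhbg and rhcga over the 657 superficial epidermis-like cells were keratins and a fucosyltransferase gene. Pearson correlations of log2 scaled UMIs with rhbg were 0.72 for krtt1c19e, 0.60 for krt5, 0.54 for fut9d and 0.50 for ahcy, which encodes S-adenosylhomocysteine hydrolase. For rhcga they were 0.47 for rhbg, 0.43 for krtt1c19e, 0.42 for fut9d and 0.41 for krt5. The correlation with krt99 was −0.44 for rhbg and −0.23 for rhcga. These cells share their library and vary in depth, so the values are descriptive, but rhbg and krtt1c19e gave 0.71 in the cut and 0.71 in the uncut cells. The highest value for ca15a was 0.20, for the chaperone gene dnaja3a, and 0.05 for each of rhbg and rhcga, which is too weak in such sparse counts to be read.

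Over the 22 cluster levels the order was different, and the correlation with krt99 was 0.43 for rhbg and 0.64 for rhcga. The genes nearest to rhbg were gig2o (0.86), cyt1l (0.85), zgc:171452 (0.85), aep1 (0.83) and agr1 (0.82), and those nearest to rhcga included the steroid hydroxylase gene cyp17a1 (0.95), psma6l and jac10 (each 0.93). For ca15a they included erbb3a (0.94), which encodes a receptor of the epidermal growth factor receptor family, and cyp1a (0.93). These correlations rest on clusters of unequal size that share both libraries. Only 5 of the 22 clusters were superficial epidermis-like, so the values in part repeat the contrast with other cells that chose the members. They do not single out a partner gene.

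Over the superficial epidermis, krtt1c19e also differed in level with rhbg. In rhbg-positive and rhbg-negative superficial epidermis-like cells, krtt1c19e stood at 5292 UPM and 126 UPM, a log2 ratio of 5.39, and fut9d at 307 UPM and 1.13 UPM. Of the 1932 fut9d UMIs in these cells, 1647 lay in cluster 5, so the fut9d contrast largely follows that cluster. Inside cluster 5, rhbg was found in 98.9% of fut9d-positive and 95.8% of fut9d-negative cells, and inside cluster 1 in 96.3% and 69.0%. epas1b, which encodes a hypoxia-inducible factor subunit, had a log2 ratio of 2.88, and rhcga stood at 435 UPM and 80.4 UPM. The shares by fut9d and krtt1c19e are of counts as deposited, so cell depth enters them. Inside clusters the link of rhbg with krtt1c19e was uneven. rhbg was found in 79.3% of krtt1c19e-positive and 17 of 34 krtt1c19e-negative cells of cluster 1 and in 70.7% of krtt1c19e-positive and 40.8% of krtt1c19e-negative cells of cluster 3, but in 14.7% and 15.5% of such cells in cluster 2 and 88.2% and 9 of 10 in cluster 12. For rhcga the link was uneven too. It was found in 54.1% of krtt1c19e-positive and 32.4% of krtt1c19e-negative cells of cluster 1. In cluster 12 it was found in 27 of 51 krtt1c19e-positive and 1 of 10 krtt1c19e-negative cells. The shares were 23.5% and 22.5% in cluster 2, and 24 of 75 and 26 of 71 cells in cluster 3. In rhcga-positive over rhcga-negative cells the log2 ratios were 3.09 for fut9d, 1.86 for krtt1c19e and 1.29 for rhbg. In ca15a-positive and ca15a-negative cells the leading gene was its relative ca15c, at 29.6 UPM and 15.7 UPM, a log2 ratio of 0.91.

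krtt1c19e and krt91 are also on the list used for basal epidermis. Of the 7 basal markers measured, 6 had UMIs in rhbg-positive and 7 in rhbg-negative superficial epidermis-like cells, and their summed level was 5604 UPM in rhbg-positive and 180 UPM in rhbg-negative cells. krt91 stood at 299 UPM in rhbg-positive and 39.6 UPM in rhbg-negative cells, a log2 ratio of 2.91, with a UMI in 43.1% and 24.2% of cells as deposited. These levels were 440 UPM and 37.1 UPM in the cut library but 115 UPM and 41.6 UPM in the uncut library. Of the 1981 krt91 UMIs in superficial epidermis-like cells, 1038 lay in cut cells of cluster 12. Apart from krtt1c19e and krt91, the basal genes were sparse. tp63, the basal transcription factor, had 25 UMIs (3.98 UPM) in rhbg-positive and 5 UMIs (1.89 UPM) in rhbg-negative cells, with 17 and 0 of these in the cut library and 8 and 5 in the uncut library. The integrin gene itgb4 had 5 UMIs in rhbg-positive and 7 UMIs in rhbg-negative cells, and itga6b had none in rhbg-positive and 3 in rhbg-negative cells. col17a1a had 5 UMIs in rhbg-positive and 3 in rhbg-negative cells. cldni had 48 UMIs (7.64 UPM) in rhbg-positive and 20 UMIs (7.55 UPM) in rhbg-negative cells. The list summed to 11255 UPM in cluster 5 and 73.9 UPM in cluster 2, against 20291 UPM in basal cluster 4. Most of the cluster 5 sum was krtt1c19e, at 10919 UPM, above its 4683 UPM in basal epidermis-like cells. krt91 went the other way, at 328 UPM in cluster 5 and 8615 UPM in basal epidermis-like cells. All 12 superficial markers had UMIs in both sets, at 222211 UPM in rhbg-positive and 161439 UPM in rhbg-negative cells. What part krtt1c19e and krt91 have in the rhbg pattern was not tested.

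Between conditions, rhbg was higher in cut than in uncut superficial epidermis-like cells when the cells were pooled. It stood at 553 UPM (532–575) from 2617 UMIs in the cut library and 404 UPM (385–424) from 1699 UMIs in the uncut library, a log2 ratio of 0.45 (0.36–0.54). Its share of cells was 67.0% (62.1–71.6) in cut and 52.1% (45.9–58.3) in uncut cells, although the cut cells were shallower, and 47.4% in cut and 34.2% in uncut cells when each was thinned to 2000 UMIs. krtt1c19e, the keratin most like it, stood at 4418 UPM in cut and 3018 UPM in uncut superficial epidermis-like cells, and its part in the difference was not tested. rhcga stood at 341 UPM (324–358) in cut and 318 UPM (301–335) in uncut cells, a log2 ratio of 0.10 (−0.01–0.21), with a UMI in 44.2% of cut and 45.6% of uncut cells as deposited and in 31.1% of cut and 25.5% of uncut cells when thinned. ca15a stood at 32.8 UPM (27.8–38.3) from 155 UMIs in cut and 22.1 UPM (17.9–27.1) from 93 UMIs in uncut cells, a log2 ratio of 0.57 (0.19–0.95). It had a UMI in 20.6% of cut and 22.4% of uncut cells as deposited. Thinned to 2000 UMIs the shares were 5.53% of cut and 4.18% of uncut cells. They were 9.89% and 9.02% when thinned to 4000 UMIs, which left out 40 cut and 8 uncut cells.

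Beside the other genes, rhbg and ca15a lay in the upper part of the range and rhcga in the middle. The median log2 ratio of 5894 genes was 0.10, so relative to it rhbg was 0.35 and ca15a 0.46 higher, and rhcga lay at the median. Of these genes, 14.05% had a higher ratio than rhbg and 8.86% a higher ratio than ca15a. None of the 3 members was 2-fold apart, against 2.46% of genes at least 2-fold higher and 0.645% at least 2-fold lower in cut cells. In all other cells rhbg stood at 33.4 UPM in the cut and 57.1 UPM in the uncut library, but 16 cells held 333 of the 434 UMIs. The unnamed clusters with superficial markers, which are among these cells, held 77.8 UPM in the cut and 18.6 UPM in the uncut library.

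Cluster by cluster, the pooled difference did not hold in every cluster. rhbg was higher in cut cells of cluster 1, with 529 UPM in cut and 423 UPM in uncut cells, and of cluster 5, with 945 UPM in cut and 769 UPM in uncut cells. It was lower in cut cells of cluster 3, with 297 UPM in cut and 442 UPM in uncut cells, and of cluster 2, with 25.8 UPM in cut and 57.1 UPM in uncut cells. Cluster 12 gave 641 UPM in cut and 889 UPM in uncut cells, but 48 of the 67 uncut UMIs lay in 1 of 3 cells, and the sign turned without it (0.99). The mean of the 5 log2 ratios was −0.31, but its sign rests on single cells. In cluster 2 there were 13 cut UMIs, and 20 of the 67 uncut UMIs lay in 1 cell. Without the highest cell of each library, the log2 ratios of clusters 1, 2, 3, 5 and 12 were 0.33, −1.01, −0.47, 0.33 and 0.93. The cut cells lay more in the clusters rich in rhbg, with 86 cut and 32 uncut cells in cluster 5 and 59 cut and 104 uncut cells in cluster 2.

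rhcga had the same signs in the clusters. It was higher in cut cells of cluster 1, with 331 UPM in cut and 207 UPM in uncut cells, and of cluster 5, with 696 UPM in cut and 504.4 UPM in uncut cells. It was lower in cut cells of cluster 3, with 167 UPM in cut and 422 UPM in uncut cells. In cluster 2 it stood at 117 UPM in cut and 207 UPM in uncut cells, but 94 of the 243 uncut UMIs lay in 1 cell, without which the uncut level was 129 UPM and the log2 ratio −0.14 (−0.60–0.30). Cluster 12 gave 210 UPM in cut cells and 876 UPM in its 3 uncut cells. As deposited, rhcga was found in 25.5% of cut and 52.1% of uncut cells of cluster 3, where uncut cells were deeper. Thinned to 2000 UMIs, these shares were 17.4% (10.3–26.7) and 29.2% (16.95–44.1), which overlap. Unlike the levels, deposited shares were lower in cut than uncut cells of cluster 1 (47.3% and 52.6%) and cluster 5 (79.1% and 84.4%). Thinned, they were 32 of 88 and 19 of 76 cells in cluster 1, and 53.6% and 53.1% in cluster 5. In clusters 2 and 12 both shares were lower in cut cells. Counting intervals treat the UMIs of 1 cell as independent, so the cells behind each value matter. Without the highest cell of each library, rhbg and rhcga kept their signs in clusters 1, 2, 3 and 5, and in cluster 12 rhcga kept its sign while rhbg turned to 0.93.

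For ca15a the subgroup values were too sparse to order, and the only interval that left out 0, in cluster 5, rested on few uncut UMIs. There ca15a stood at 35.3 UPM from 43 UMIs in cut and 6.86 UPM from 6 UMIs in uncut cells, a log2 ratio of 2.36 (1.13–3.89). Of the 6 uncut UMIs, 3 lay in 1 of 32 cells. Without the highest cell of each library the log2 ratio was 3.16 (1.51–5.50). The shares of cells with a UMI overlapped, at 26.7% (17.8–37.4) of cut and 12.5% (3.51–29.0) of uncut cells. The ratio in clusters 1, 2 and 3 was 0.28, −0.08 and 0.25, with intervals that held 0. Cell states, cell numbers per cluster and the library each differ between the conditions, and with 1 library per condition they cannot be told apart.

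**Figure D4:**
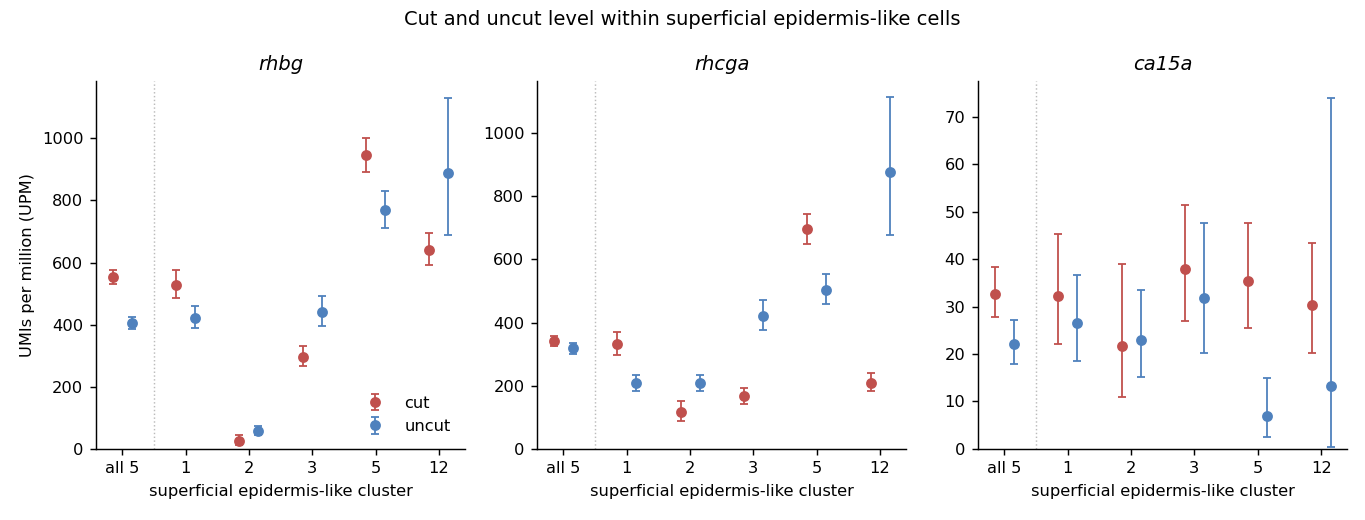
Level (UPM, linear axis from 0) of each gene as points in cut and uncut cells of the superficial epidermis-like clusters and of the class as a whole, with exact 95% Poisson intervals. rhbg is higher in cut cells over the class (553 and 404 UPM) and in clusters 1 and 5, but lower in cut cells of clusters 2, 3 and 12, the last with 3 uncut cells.

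Among the other Rh genes, rhcgl1 resembled the members in place but not in pattern. It had 5062 UMIs, 95.6% of them in superficial epidermis-like cells, at 542 UPM, and it stood between 414 UPM in cluster 12 and 604 UPM in cluster 1. Its correlation over superficial epidermis-like cells was 0.06 with rhbg and 0.14 with rhcga. It was lower in cut cells, at 381 UPM in cut and 722 UPM in uncut cells, a log2 ratio of −0.92, and lower in 5 of 5 clusters (−1.26 to −0.58). The −0.58 is that of cluster 12, where the 45 uncut UMIs of rhcgl1 lay in 1 of 3 cells. rhcgb had 18 UMIs, all in mesenchyme-like cells. rhag, the Rh-associated glycoprotein of red blood cells, had 25 UMIs, 17 in basal epidermis-like and 8 in erythroid-like cells, and rhd had 11 UMIs.

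Among the carbonic anhydrases, ca2, a cytosolic form, was by far the most abundant. It reached 598 UPM in superficial epidermis-like cells and 235 UPM in all other cells, was found in 93.3% of superficial epidermis-like cells, and reached 1867 UPM in the unnamed clusters with superficial markers. It was higher in cut cells, at 715 UPM in cut and 467 UPM in uncut superficial epidermis-like cells (log2 ratio 0.61), and in 5 of 5 clusters (0.50 to 1.47). In cluster 12, however, the uncut side was 3 cells with 24 ca2 UMIs. ca15c, a close relative of ca15a, had 171 of 178 UMIs (96.1%) in superficial epidermis-like cells, at 20.9 UPM in cut and 17.1 UPM in uncut cells. ca15b had 36 UMIs, of which 16 were in cut and 5 in uncut superficial epidermis-like cells. cahz had 216 UMIs, 176 of them in the 9 erythroid-like cells, and ca8 had 96 UMIs, 77 of them in mesenchyme-like cells. The mitochondrial form ca5a had 103 UMIs, ca10a 40, ca4a 25 and ca7 3, while ca14 and ca4b had none. Reads that fit several copies of a gene family could be lost or misplaced in counting, which was not tested.

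**Figure D5:**
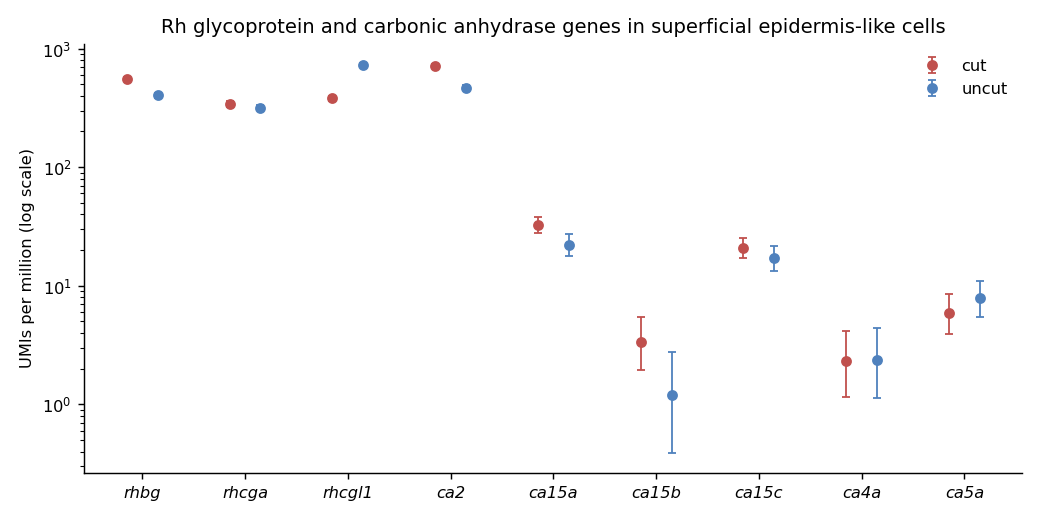
Level (UPM, log axis) in cut and uncut superficial epidermis-like cells of rhbg, rhcga, ca15a and the 6 other Rh glycoprotein and carbonic anhydrase genes drawn, as points with exact 95% Poisson intervals. rhcgl1 stands lower in cut cells (381 UPM in cut and 722 UPM in uncut cells) and ca2 higher (715 UPM in cut and 467 UPM in uncut cells), while ca15a stands at 32.8 UPM in cut and 22.1 UPM in uncut cells.

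Genes that move protons, sodium, bicarbonate or ammonia beside these proteins lay on both sides. The list held 58 genes without the members, including the V-type proton pump, sodium-proton exchangers, the sodium-potassium pump and enzymes of ammonia metabolism. Of 34 with at least 50 UMIs, 6 were at least 2-fold higher in superficial epidermis-like cells (17.6%, against 10.3% of all genes) and 7 at least 2-fold lower (20.6%, against 27.4%). The higher ones were rhcgl1, ca15c, ca2, the pump subunit genes atp1b3b (log2 ratio 2.07) and atp6v1c1b (1.40), and the exchanger gene slc9a2 (1.87). The lower ones included glula, a glutamine synthetase gene that fixes ammonia (−5.80), and the proton pump gene atp6v0cb (−5.81). Their relatives glulb and atp6v0ca were abundant in superficial epidermis-like cells, at 197 UPM and 191 UPM. They were found in 70.6% and 81.9% of these cells, with log2 ratios of −0.56 and −0.32, short of 2-fold. The median of the 34 genes was 0.16, against −0.20 for all genes.

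Between conditions none of the 28 related genes counted was 2-fold apart within superficial epidermis-like cells, beside 2.46% of all genes higher and 0.645% lower in cut cells. Their median log2 ratio was −0.22, against 0.10 for all genes. The proton pump genes lay on the low side, with a median of −0.32, and 13 of 14 were below 0, against 37.9% of all genes. The counting interval lay below 0 for 7 of the 14, as for 9.01% of all genes. Their direction was not that of rhbg or ca15a in the pooled cells.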

How the data were processed

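The authors aligned reads to danRer11 with Cell Ranger 3.1.0 and deposited UMI counts per gene and cell for each library and an aggregated matrix, which was used here. Cell Ranger was run at its default settings per the authors' methods. The aggregated matrix kept 95.3% of cut and 100% of uncut UMIs. Total UMIs were 7033569 for cut and 10458222 for uncut cells. All deposited cells were kept. Scrublet called 0 of 762 cut and 5 of 878 uncut cells doublets, and these were kept.

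Counts were scaled to the median depth and log2-transformed after adding 1. Cells were clustered by Leiden (leidenalg 0.10.2, resolution 1, 2000 variable genes), with 18 Rh and carbonic anhydrase genes left out. The 20 principal components and 15 neighbours were found with scikit-learn 1.9.0. A cluster was named when 3 or more markers of a class were raised (log2 ratio at least 0.5, in at least 25% of cells) and its leading genes did not go against the name. Summed UMIs carry exact Poisson intervals and shares exact Clopper-Pearson intervals (scipy 1.17.1). Droplet UMIs may include free RNA, and intervals cover counting error only. For comparisons of shares cells were thinned to 2000 UMIs, which left out 14 cut and 0 uncut superficial epidermis-like cells. A depth of 4000 UMIs, used where stated, left out 40 cut and 8 uncut of these cells. Ratios over all genes needed 50 UMIs and add 0.5 UMI to each side. The procedures were tested on simulated data.

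Named genes were the members, all Rh and carbonic anhydrase genes, listed related genes past 2-fold, and for each member the 5 most alike and the 5 leading genes, of which those described were chosen after their values were seen, as were the proton pump counts and the basal and ionocyte markers named. Members and lists were chosen with earlier results of these data known. Alternatives were other clusterings, cell filters, matrices, a marker gate, thinning depths subsets of clusters or libraries, and leaving out the highest cell of each library. Sequences and coordinates were not analysed here.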

Additional observations from a re-analysis of the deposited data

Results flagged for a closer look

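The difference between the cut and uncut libraries had opposite signs in different superficial epidermis-like clusters, which drew attention to it for 2 of the 3 genes. For rhbg the log2 ratio of cut over uncut was 0.32 in cluster 1 and 0.30 in cluster 5, but −1.15 in cluster 2, −0.57 in cluster 3 and −0.47 in cluster 12. For rhcga it was 0.68 in cluster 1 and 0.46 in cluster 5, but −0.82 in cluster 2, −1.34 in cluster 3 and −2.06 in cluster 12. Each condition is 1 library, so the difference between clusters was not tested, and some values rest on single cells. Without the highest uncut cell, rhcga gave −0.14 in cluster 2 and rhbg 0.99 in cluster 12, whose uncut side holds 3 cells.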

How the results depend on the processing

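No paired analysis was possible because each condition had 1 library, and for the same reason no library could be left out of a comparison between conditions. Of 120 values recomputed, 90 stayed within their counting interval or count. The settings chosen after seeing the data were adding the unnamed clusters, leaving out cluster 12, the called doublets or the highest cell of each library, averaging clusters, and using 1 library. For superficial over other cells, the log2 ratio at resolution 2 was 1.80 for rhbg, 1.97 for rhcga and 2.56 for ca15a. With superficial cells defined by at least 6 markers (964 cells) it was 4.74 for rhbg and 7.91 for rhcga, and no ca15a ratio could be given because no ca15a UMI lay outside. Resolution 0.5, which gave the same 770 cells as adding the unnamed clusters, gave 6.46 for rhcga under both. rhbg gave 4.05 in the cut and 2.82 in the uncut library.

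For cut over uncut, resolution 2 gave 0.33 for rhbg and −0.25 for rhcga, and the marker gate 0.68 for rhbg and 0.48 for rhcga. Over all cells, which mix in the larger superficial share of the cut library, the ratios were 0.96 for rhbg, 0.80 for rhcga and 1.18 for ca15a. The mean over cells gave 0.71 for rhbg. The mean of clusters gave −0.31 for rhbg, opposite to the pooled value but with a sign that rests on single cells. For rhcga the mean of clusters gave −0.62, and the value without cluster 12 was 0.28. For co-detection, the rhbg and rhcga difference was 25.7 points thinned to 2000 UMIs and 33.2 points at 4000. That of rhbg and ca15a turned to −2.19 and −0.34 points. That of rhcga and ca15a was −0.92 points at 2000 UMIs and 12.4 points in the uncut library. The count of related genes past 2-fold was 1 in place of 0 at resolution 0.5 and with unnamed clusters added (slc4a2b, −1.06), with the marker gate (atp1b3a, −1.05) and with a minimum of 20 UMIs (ca15b, 1.41). Apart from the settings named, the cause of these changes was not tested. Depth limits ca15a most, with a median of 1 UMI per positive cell.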
